A study of Mus musculus with 10 samples.

Results

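The genes described here include the 4 genes of the β subunit family of the sodium-potassium pump (Atp1b1, Atp1b2, Atp1b3 and Atp1b4). Of these, Atp1b4 encodes a relative that in placental mammals has lost its role as a pump subunit. The others encode 3 small FXYD regulators of the pump (Fxyd1, Fxyd5 and Fxyd6) and the muscle chloride channel (Clcn1). The genes were taken by name, with earlier results of these data known, and all 8 were found among the 54232 genes of the deposited table. All reached the expression limit of the test, a mean of at least log2(10). RNA was sequenced from the gastrocnemius, a calf muscle made up mostly of fast fibers, of 5 desmin knock-out mice (Des -/-) and 5 wild-type mice (Des wt/wt) aged 3 months. Both groups carry the same strain label, the line Destm1Cba/Cscl on a background given as B6J and 129Sv, the wild-type mice were littermates, and the deletion affects every tissue throughout development. The comparison asks how transcripts of muscle change without desmin, the main intermediate filament protein of muscle fibers. The study also names the plantaris muscle as part of the RNA source. According to the methods RNA of the muscles was pooled, whereas the table has a column for each mouse; if columns came from a pool, the p-values given here would measure technical spread only. Expression is given as rlog, the regularized logarithm of DESeq2. It uses base 2 and shrinks each gene towards its own mean, so that differences are smaller than those of counts and depth is unknown.

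The sodium-potassium pump moves sodium out of and potassium into the fiber and so restores the gradients that each action potential runs down. Its α subunit carries out transport, its β subunit is a glycoprotein needed for folding and delivery of the α subunit to the membrane, and FXYD proteins are single-span partners that tune the affinity of the pump. Chloride flow through ClC-1, the product of Clcn1, steadies the resting potential of the fiber, and loss of this channel causes myotonia.

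Des, the targeted gene, lay between 11.76 and 11.89 in all knock-out and between 16.10 and 17.74 in all wild-type libraries, as labelled. Wild-type mouse 3 stood apart from the others. Its values correlated with those of its group at 0.982 on average (0.989 to 0.991 for the rest), the sum of its values on the linear scale was 1.48 times the median of all mice (0.949 to 1.06 for the rest), and limma's sample weights gave it 0.10, with 0.275 for wild-type mouse 4 and 0.793 or more for all others. For the 8 genes, values without both mice are given where they changed a call or moved a difference by over 1.5 times. The list of 10 fast fiber markers was expressed at a summed level of 22.03 or more in each mouse, as the labelled tissue would have it, and none of the markers of any list was at 0 in all mice.

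Among the 8 genes, Atp1b4 rose about 4-fold on the rlog scale, Atp1b1 rose 1.67-fold and Clcn1 fell to 0.778 of the wild-type level. These 3 had an adjusted p under 0.05 (limma, Benjamini-Hochberg over all 14289 tested genes), compared with 13.7% of all tested genes (7.7% higher and 5.99% lower). Because the genes were chosen with earlier results known, the counts given here describe the 8 genes and do not test them as a set. The same 3 were the genes whose knock-out values did not overlap with the wild-type values, which was found for 14.4% of all tested genes (7.45% higher and 6.97% lower). An unadjusted p under 0.05 was likewise found for these 3 alone, and for 27.6% of all tested genes. None of the 3 FXYD genes among the 8 passed, at the adjusted or the unadjusted p. The median log2 difference of the 8 genes was 0.13, and that of all tested genes was -0.003. The count of 3 held with each mouse left out in turn, but it was 7 with sample weights and 5 without wild-type mice 3 and 4. Neither of these settings removed a gene. The added genes had log2 differences of 0.17 to 0.39. The largest was that of Fxyd1 without wild-type mice 3 and 4, where Clcn1 had -0.33.

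**Figure D1:**
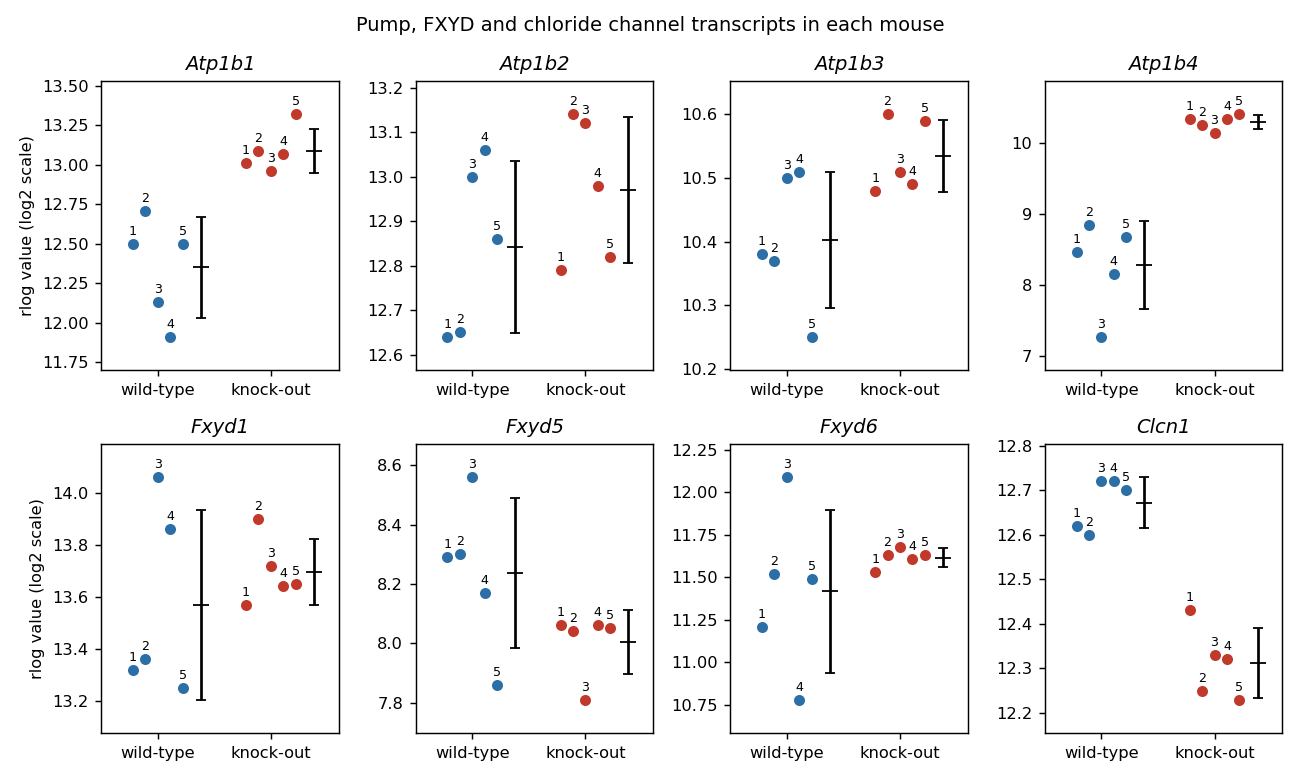
Deposited rlog values (log2 scale, a separate axis range for each gene) of the 8 genes in each of the 5 wild-type (blue) and 5 desmin knock-out (red) mice, numbered as labelled, with the mean and SD of each group beside the points. For Atp1b1 and Atp1b4 all knock-out values lie above, and for Clcn1 below, all wild-type values, while the groups of the other 5 genes overlap.

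To show the sequence next to the genes that changed, the 250 bases before the RefSeq transcription start of Atp1b4, Atp1b1 and Clcn1 (GRCm38.p6) are printed 5′ to 3′ on the strand of the gene. They are the windows chrX:38315872-38316121 (forward strand), chr1:164458356-164458605 (reverse strand) and chr6:42286435-42286684 (forward strand). Capitals mark matches on either strand to the E-box CANNTG, bound by myogenic factors, to the CCAAT box CCAAT, to the GC box GGGCGG, and to the TATA box TATAAA and the MEF2 consensus, which overlap in Clcn1.
Atp1b4: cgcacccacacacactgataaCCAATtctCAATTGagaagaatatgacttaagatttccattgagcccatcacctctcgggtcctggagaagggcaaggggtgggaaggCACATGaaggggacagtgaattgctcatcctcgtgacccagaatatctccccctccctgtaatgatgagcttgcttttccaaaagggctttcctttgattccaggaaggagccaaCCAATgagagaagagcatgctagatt
Atp1b1: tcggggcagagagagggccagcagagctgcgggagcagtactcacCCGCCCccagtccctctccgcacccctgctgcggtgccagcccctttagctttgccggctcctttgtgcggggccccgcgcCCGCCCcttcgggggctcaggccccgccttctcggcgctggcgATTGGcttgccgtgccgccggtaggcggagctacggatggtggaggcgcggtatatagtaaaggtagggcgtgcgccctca
Clcn1: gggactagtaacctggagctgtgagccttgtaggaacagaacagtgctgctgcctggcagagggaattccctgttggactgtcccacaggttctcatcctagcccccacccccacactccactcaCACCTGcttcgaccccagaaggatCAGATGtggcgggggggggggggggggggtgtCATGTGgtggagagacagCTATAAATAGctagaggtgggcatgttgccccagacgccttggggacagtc
The 3 windows differ in type. That of Atp1b1 holds 2 GC boxes and 1 CCAAT box, no E-box, and 70.4% G and C. That of Atp1b4 holds 2 E-boxes and 2 CCAAT boxes at 48.4% G and C, and its RefSeq start lies 62 bases before the start of the gene in GENCODE. In Clcn1, 3 E-boxes lie 125, 101 and 69 bases before the start, and a MEF2 match that contains the TATA box begins 51 bases before it. Of all 32851 windows of the same length, 66.2% held an E-box, 33.8% a CCAAT box, 32.7% a GC box, 12.4% a TATA box and 0.508% the MEF2 consensus. A CArG box (1.47% of windows) and the MCAT motif CATTCC (12.6%) were found in none of the 3 windows, and the core GGAAA of the NFAT site (55.6%) only in that of Atp1b4, at 3 places. Such matches describe the letters of these windows and were not tested for binding. Windows were found for 7 of the 8 genes, all except Atp1b2.

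Atp1b4 (ENSMUSG00000016327, X chromosome of GRCm38, 38316184 to 38336769, forward strand) encodes a β subunit relative of muscle that in placental mammals resides in the inner nuclear membrane and has lost its role as a pump subunit. Its rlog values were 8.47, 8.85, 7.27, 8.16 and 8.67 in wild-type mice 1 to 5. In desmin knock-out mice 1 to 5 they were 10.34, 10.25, 10.14, 10.34 and 10.40. The lowest knock-out value thus lay 1.29 above the highest wild-type value. This is a log2 difference of 2.01 with a standard error of 0.23 (limma, adjusted p = 5.95e-05), a fold of 4.04 with a 95% interval of 2.86 to 5.68. Only 20 of the 14289 tested genes had a larger rise, Atp1b4 being number 21. In a two-sided exact permutation test p was 0.00794, and groups of this size cannot give a smaller one. Knock-out mice were close together (SD 0.10, n = 5) and wild-type mice were spread (SD 0.62, n = 5). Wild-type mouse 3 had the lowest value, and without it the log2 difference was 1.76, and 1.63 without wild-type mice 3 and 4 (adjusted p = 2.68e-07 from limma).

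Atp1b1 (ENSMUSG00000026576, chromosome 1, 164437109 to 164458355, reverse strand) encodes β1, the most widespread β subunit of the pump. Wild-type mice 1 to 5 had 12.50, 12.71, 12.13, 11.91 and 12.50. Desmin knock-out mice 1 to 5 had 13.01, 13.09, 12.96, 13.07 and 13.32. All knock-out values lay above all wild-type values, by 0.25 at the nearest. The log2 difference was 0.74 with a standard error of 0.14 (limma, adjusted p = 0.00311; exact permutation test p = 0.00794). Wild-type mice 3 and 4 had the lowest values, and without both the log2 difference was 0.52 (limma, adjusted p = 0.000885). Atp1b1 overlaps 617 bases of Nme7, a gene on the opposite strand, whose highest value was 5.62 and whose difference was -0.28 (limma, adjusted p = 0.229). The sources used here do not state whether reads were counted by strand.

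Atp1b2 (ENSMUSG00000041329, chromosome 11, 69599736 to 69605942, reverse strand) encodes β2, which is also an adhesion molecule of glial cells. It had 12.64, 12.65, 13.00, 13.06 and 12.86 in wild-type mice 1 to 5 and 12.79, 13.14, 13.12, 12.98 and 12.82 in desmin knock-out mice 1 to 5. The groups overlapped, and the log2 difference of 0.13 (95% interval -0.12 to 0.37, adjusted p = 0.498 from limma) was smaller than the SD of either group. Without wild-type mice 3 and 4 it was 0.25 (limma, adjusted p = 0.0649). Wild-type mice 3 and 4, which were lowest for Atp1b1, were highest among wild-type mice for Atp1b2. Atp1b3 (ENSMUSG00000032412, chromosome 9, 96332655 to 96364442, reverse strand) encodes β3, a broadly expressed subunit. Its values were 10.25 to 10.51 in wild-type and 10.48 to 10.60 in desmin knock-out mice. Here too groups overlapped, with a log2 difference of 0.13 (95% interval -0.05 to 0.31, adjusted p = 0.331 from limma). It passed without wild-type mice 3 and 4 (0.20; limma, adjusted p = 0.0357) and with sample weights (0.17, adjusted p = 0.0397). For both genes the interval leaves out a rise of the size seen for Atp1b1, 0.74.

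Levels of different genes can be compared only per length, and for this the rlog value was reduced by log2 of the length in kb of the principal transcript. On this scale β transcripts of wild-type muscle were led by Atp1b2 (11.34 ± 0.19, SD, n = 5) and Atp1b1 (10.98 ± 0.32, SD, n = 5), which differed by about their spread, followed by Atp1b3 (9.41 ± 0.11, SD, n = 5) and Atp1b4 (6.21 ± 0.62, SD, n = 5). In desmin knock-out muscle Atp1b1 had 11.72 ± 0.14 (SD, n = 5), Atp1b2 11.46 ± 0.16 (SD, n = 5), Atp1b3 9.54 ± 0.06 (SD, n = 5) and Atp1b4 8.22 ± 0.10 (SD, n = 5). The means of the leading pair stood in the opposite order in the 2 genotypes, but this order rests on wild-type mice 3 and 4, without which the wild-type means were 11.20 for Atp1b1 and 11.21 for Atp1b2. With the merged length of all exons of a gene, Atp1b1 had 10.73 and Atp1b2 10.81 in wild-type muscle (10.95 and 10.69 without wild-type mice 3 and 4), against 11.47 and 10.94 in desmin knock-out muscle. The order of Atp1b1 and Atp1b2 in wild-type muscle was therefore not settled, and in knock-out mouse 3 Atp1b2 had the larger share on the first scale. As a share of the summed linear level of all 4 β genes, Atp1b4 made up 0.685% to 1.94% in wild-type and 3.72% to 4.59% in desmin knock-out mice. Atp1b1 made up 28.2% to 46.1% and 42.7% to 52.0%, and Atp1b2 40.2% to 56.8% and 33.5% to 43.5%. Atp1b3 made up 11.0% to 13.8% in wild-type and 9.97% to 10.6% in desmin knock-out mice. The shares of Atp1b4, higher in knock-out mice, and of Atp1b3, lower in knock-out mice, did not overlap between genotypes, whereas those of Atp1b1 and Atp1b2 did. The summed level itself, on the log2 scale per kb, was 12.35 to 12.46 in wild-type and 12.72 to 12.89 in desmin knock-out mice, without overlap. These shares and sums follow from the values above and were not tested. They describe transcripts of the gene family and not the make-up of the pump, since Atp1b4 has lost its role as a pump subunit.

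**Figure D2:**
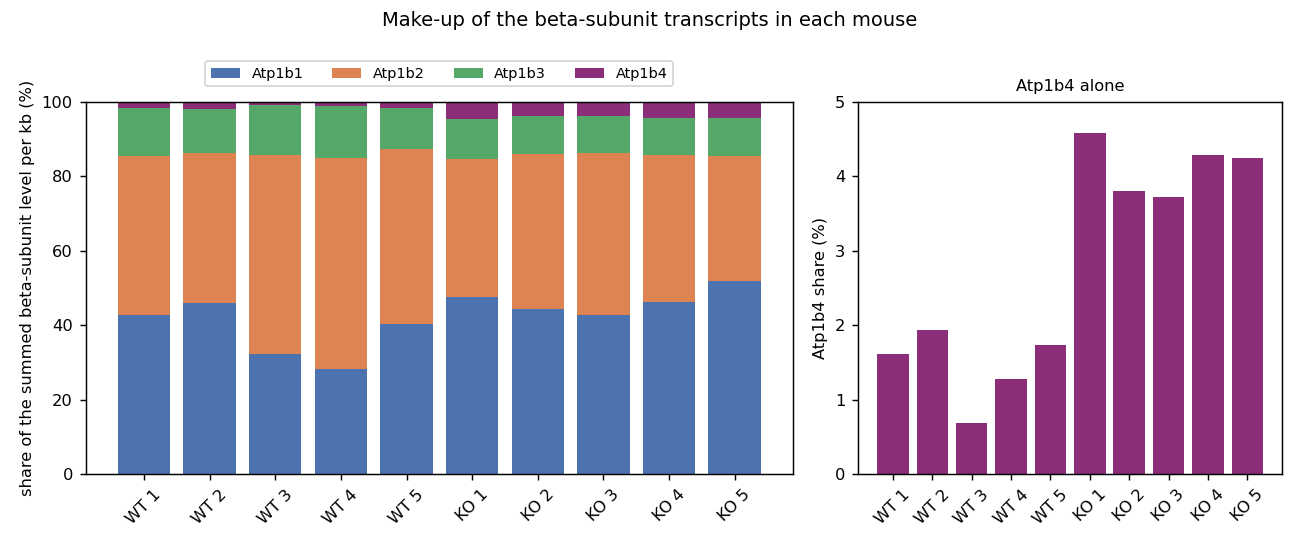
Share of each gene of the β subunit family in the summed linear level per kb of all 4 β genes (left, stacked bars adding to 100%), and the share of Atp1b4 alone on its own axis (right), for each wild-type (WT) and desmin knock-out (KO) mouse. Atp1b4 stays at or below 1.94% in wild-type mice and is at least 3.72% in knock-out mice, and wild-type mice 3 and 4 have the smallest shares of Atp1b1.

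None of the 3 FXYD genes among the 8 passed the test. Fxyd1 (ENSMUSG00000036570, chromosome 7, 31051678 to 31057199, reverse strand) encodes phospholemman, the main FXYD protein of heart and skeletal muscle, which restrains the pump until it is phosphorylated. It had the highest level per kb of the 8 genes (14.26 ± 0.37 in wild-type and 14.39 ± 0.12 in desmin knock-out muscle, SD, n = 5). Its rlog values were 13.32, 13.36, 14.06, 13.86 and 13.25 in wild-type mice 1 to 5. Those of desmin knock-out mice 1 to 5 were 13.57, 13.90, 13.72, 13.64 and 13.65. All knock-out mice lay above wild-type mice 1, 2 and 5 and below wild-type mouse 3, and knock-out mouse 2 alone lay above wild-type mouse 4. The log2 difference was 0.13 (95% interval -0.21 to 0.46, adjusted p = 0.635 from limma), and it was 0.39 without wild-type mice 3 and 4 (adjusted p = 0.00322 from limma). The call for Fxyd1 therefore depends on these mice.

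Fxyd6 (ENSMUSG00000066705, chromosome 9, 45370185 to 45396159, forward strand) encodes phosphohippolin, a FXYD protein known from brain. Wild-type mice 1 to 5 had 11.21, 11.52, 12.09, 10.78 and 11.49, and desmin knock-out mice 1 to 5 had 11.53, 11.63, 11.68, 11.61 and 11.63. All knock-out values fell inside the wild-type range. The log2 difference was 0.20 (95% interval -0.19 to 0.59, adjusted p = 0.514 from limma), with 0.36 without wild-type mouse 3 and 0.04 without wild-type mouse 4. Wild-type values had 8.77 times the SD of the knock-out values, the widest ratio among the 8 genes.

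Fxyd5 (ENSMUSG00000009687, chromosome 7, 31032722 to 31042481, reverse strand) encodes dysadherin, a FXYD protein that also lowers cell adhesion. Its values were 8.29, 8.30, 8.56, 8.17 and 7.86 in wild-type mice 1 to 5 and 8.06, 8.04, 7.81, 8.06 and 8.05 in desmin knock-out mice 1 to 5. Only wild-type mouse 5 reached down into the knock-out range. With a log2 difference of -0.23 (95% interval -0.50 to 0.04, adjusted p = 0.255 from limma; exact permutation test p = 0.0873), Fxyd5 was lower on average without desmin but did not pass. The log2 difference was -0.15 without wild-type mouse 3, -0.14 without wild-type mice 3 and 4, and -0.32 without wild-type mouse 5 (limma, adjusted p = 0.0755). On chromosome 7, Fxyd5, Fxyd7 and Fxyd1 lie next to each other on the same strand, with 31 bases between Fxyd5 and Fxyd7 and 210 bases between Fxyd7 and Fxyd1. The log2 difference of Fxyd7 was 0.66 (limma, unadjusted p = 0.0152, adjusted p = 0.0851), and none of these neighbours passed at the adjusted p.

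Clcn1 (ENSMUSG00000029862, chromosome 6, 42286685 to 42315756, forward strand) had the tightest values of the 3 changed genes. Wild-type mice 1 to 5 had 12.62, 12.60, 12.72, 12.72 and 12.70. Desmin knock-out mice 1 to 5 had 12.43, 12.25, 12.33, 12.32 and 12.23. Every knock-out value lay below every wild-type value, by 0.17 at the nearest. The log2 difference was -0.36 with a standard error of 0.08 (limma, adjusted p = 0.00765; exact permutation test p = 0.00794), well beyond the SD of 0.08 in knock-out and 0.06 in wild-type mice. It corresponds to a fall to 0.778 of the wild-type level (95% interval 0.691 to 0.875). Among all tested genes it was number 1246 from the largest fall. Wild-type mice 3 and 4, which had the lowest wild-type values of Atp1b1 and Atp1b4, were close to wild-type mouse 5 here. Without both the log2 difference was -0.33 (limma, adjusted p = 0.00232). Clcn1 shares 445 bases with Fam131b of the opposite strand, whose highest value was 3.95.

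Clcn1 is expressed more in fast than in slow fibers, and pump isoforms also differ between fiber types. Of 10 fast fiber markers, 3 fell and none rose in desmin knock-out muscle at an adjusted p under 0.05 (5.99% of all tested genes fell and 7.7% rose). At an unadjusted p under 0.05, 5 were lower and 1 was higher (27.6% of all tested genes in either direction). The median log2 difference was -0.44, and the leading ones were Mybpc2 (-1.05, adjusted p = 0.00258) and Actn3 (-0.97, adjusted p = 0.0196, limma). Their summed level on the log2 scale was 22.33 to 23.18 in wild-type and 22.03 to 22.26 in desmin knock-out mice. Marker lists were not summarized without wild-type mouse 3. Its 20 highest genes held 46.7% of its summed linear values, against 35.8% to 39.5% in the other mice. Of 10 slow fiber markers 3 rose and 1 fell (4 and 1 at an unadjusted p under 0.05), with a median of 0.20, led by Tnnt1 (1.70, adjusted p = 8.53e-05) and Casq2 (1.01, adjusted p = 0.00279, limma). Their summed level was 14.63 to 15.70 in wild-type and 15.17 to 15.69 in desmin knock-out mice. The part of the fiber types in the differences of Clcn1, Atp1b1 and Atp1b4 was not tested. In whole muscle, fewer cells of a type and less RNA per cell cannot be told apart.

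Other cells of muscle also express pump genes, and their marker counts are set against the 7.7% of all tested genes that rose and the 5.99% that fell. Of 8 endothelial markers 4 fell (median log2 difference -0.38, led by Cdh5 with -0.52 and Pecam1 with -0.49), at summed levels of 12.37 to 12.74 in wild-type and 11.94 to 12.40 in desmin knock-out mice. Of 8 fibroblast markers 5 rose (median 0.45, led by Col1a2 with 0.64 and Lum with 0.99), at summed levels of 13.51 to 14.43 and 13.95 to 14.55. Of 7 smooth muscle markers 1 fell (Kcnj8, -0.53), and of the 5 tested of 6 erythroid markers 2 fell (Alas2, -1.0, and Hbb-bs, -0.74, a globin gene near-identical to Hbb-bt). Of 8 Schwann cell markers 1 rose (Egr2, 1.02), so that the shares called in the smooth muscle list (14.3%) and the Schwann cell list (12.5%) were near the 13.7% of all tested genes. Of the 2 tested of 5 epithelial markers, the keratin genes Krt18 and Krt8, 1 rose (Krt18, 1.71), and Krt8 did not pass (0.81, adjusted p = 0.216 from limma). The rest of that list was not tested, so these keratin genes alone do not show epithelial cells. None of 8 macrophage markers and none of 5 adipocyte markers passed in limma, also at an unadjusted p under 0.05. Their part in the differences of the 8 genes was not tested.

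Other genes of FXYD proteins, of pump-associated proteins, of the chloride channel family and of cation-chloride transport were described through a list of 28 genes, of which 18 were tested. At an adjusted p under 0.05, 2 of these rose and none fell (limma; 4 higher and 1 lower at an unadjusted p under 0.05), which is 11.1%, close to the 13.7% of all tested genes, and the median log2 difference was 0.05. The chloride channel and chloride-proton exchanger genes Clcn2 to Clcn7, relatives of Clcn1 that serve mostly in the membranes of endosomes and lysosomes, had log2 differences of -0.12 to 0.10. None of them passed in limma, also at an unadjusted p under 0.05, while Clcn1 fell by 0.36 on the log2 scale. Knock-out values of Clcn3 (10.97 to 11.08) lay below wild-type mice 1, 2 and 5 (11.36, 11.29 and 11.14). They lay above wild-type mice 3 and 4 (10.49 and 10.80). Knock-out values of Clcn4 (11.31 to 11.39) lay below all wild-type mice (11.41 to 11.59) except mouse 4 (11.30). The wild-type mean of Clcn3 thus depends on wild-type mice 3 and 4, and the overlap of the groups for Clcn4 on wild-type mouse 4 alone. A fall was not shown to be particular to Clcn1.

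Slc12a4, which encodes the potassium-chloride cotransporter KCC1, rose by 0.43 (standard error 0.09, adjusted p = 0.00477 from limma), from 8.90 to 9.13 in wild-type to 9.39 to 9.61 in desmin knock-out mice, without overlap. Its relatives Slc12a7 and Slc12a9 had differences of 0.30 and 0.35 but did not pass (adjusted p = 0.132 and 0.351 from limma), and Slc12a5 had -0.18 (-0.30 without wild-type mice 3 and 4; limma, adjusted p = 0.142). Slc12a9 was 0.14 without wild-type mouse 3 and 0.56 without wild-type mouse 4, and it passed without both (0.35; limma, adjusted p = 0.0353). Slc12a2, the sodium-potassium-chloride cotransporter that loads fibers with chloride, had a 95% interval of -0.36 to 0.36 and a mean of 11.66 in both genotypes, and its difference was -0.28 without wild-type mice 3 and 4 (limma, adjusted p = 0.0692). The sodium-calcium exchanger genes Slc8a1 (-0.36) and Slc8a3 (0.06, and 0.02 without wild-type mice 3 and 4) did not pass either. Slc8a1 passed, however, without wild-type mice 3 and 4 (-0.65; limma, adjusted p = 0.00315), with sample weights (-0.60, adjusted p = 0.00132) and with GC and length trends removed (-0.58, adjusted p = 0.00608). Nkain2, a gene for a pump-associated membrane protein, rose by 0.42 (standard error 0.11, adjusted p = 0.0215 from limma) at a level that only 1.32% of tested genes lay below. It lost the call in 3 of 19 alternatives, among them the one without wild-type mice 3 and 4 (0.32; limma, adjusted p = 0.062). Its relative Nkain1, at means of 8.95 in wild-type and 8.40 in desmin knock-out mice, went the other way. Its log2 difference was -0.54 (limma, unadjusted p = 0.0304, adjusted p = 0.133), and it did not pass. Wild-type mouse 3 had the highest Nkain1 value, 9.90, the other wild-type mice having 8.33 to 8.99.

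**Figure D3:**
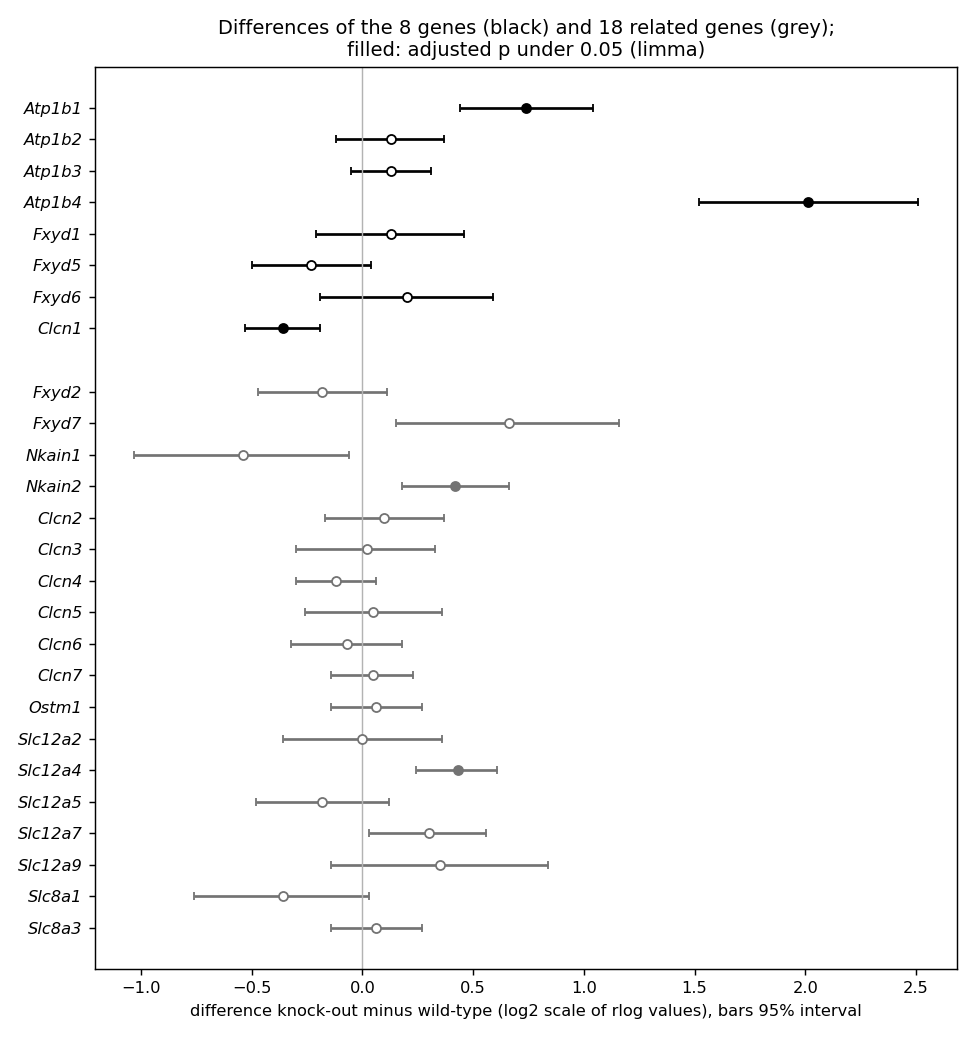
Log2 difference (desmin knock-out minus wild-type, rlog scale) with its 95% interval for the 8 genes (black) and the 18 tested genes of the pump and chloride transport list (grey), filled where the adjusted p from limma was under 0.05. Atp1b4 (2.01) lies far to the right of the others, and Clcn1 (-0.36) is the only filled point left of 0.

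The genes whose pattern over the 10 mice was nearest to that of each changed gene were found by the root mean square difference of values centred on the mean of each gene. For Atp1b4 these were Klf5 (0.271, log2 difference 2.06) and Scn2a (0.307, log2 difference 1.77). For Atp1b1 they were Shc4 (0.088, log2 difference 0.73) and Mid2 (0.109, log2 difference 0.83), and for Clcn1 Sh2b3 (0.051, log2 difference -0.35) and Wdsub1 (0.062, log2 difference -0.39). This likeness includes the difference between genotypes and is given as a description.

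**Figure D4:**
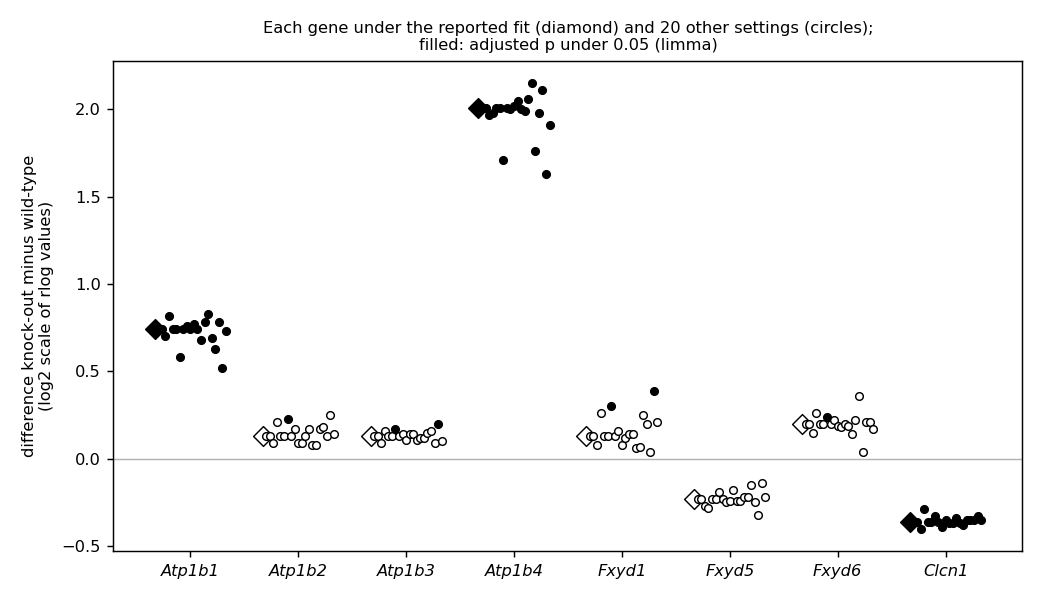
Log2 difference (desmin knock-out minus wild-type, rlog scale) of each of the 8 genes in the reported fit (diamond) and in 20 other settings (circles), filled where the adjusted p from limma was under 0.05. Atp1b1, Atp1b4 and Clcn1 are filled throughout, Fxyd5 never, and the other 4 genes only with sample weights or without wild-type mice 3 and 4.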

How the data were processed

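Stranded mRNA libraries of gastrocnemius RNA, 5 per genotype, were sequenced. Per the submitters' processing notes, cutadapt 2.5, STAR 2.5.4a, featureCounts of Subread 1.6.1 and DESeq2 were used with GRCm38; the strand setting of counting is not given in the sources used here. The authors deposited rlog values on a log2 scale, 1 column per mouse, and all 10 were used. Since rlog values are not counts, no count test was applied.

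The test was limma 3.58.1 under R 4.3.3, for genes whose mean reached log2(10) (trend in the variance prior, two-sided, Benjamini-Hochberg over 14289 genes). In simulated data for this comparison with 14289 genes, 98% of changes of 1 and 100% of changes of 2 on the log2 scale were recovered, and 6.16% of calls were false. The simulated noise was normal, independent between genes and of the same spread in both genotypes. In the deposited values the wild-type SD was 6.0 times the knock-out SD for Atp1b4 and 0.76 times for Clcn1. Wild-type mouse 3 also stood apart and wild-type mouse 4 had a low sample weight (0.275), so these rates need not hold for the deposited values. Single genes were also tested by exact permutation. Symbols, positions and lengths came from GENCODE M21 (GRCm38; 54165 of 54232 genes matched), promoters from RefSeq. The genes and lists were chosen with earlier results of these data known. Named were Des, the 8 genes, genes of the transport list that passed, its cotransporters, the leading 2 genes of marker lists and the nearest 2 patterns of each changed gene; other transport genes, overlapping genes and neighbours were named after their values were seen. Some genes of the list first drawn up are not reported here. Motifs were also chosen after the values. Alternatives were no limit or log2(50), median centring, quantile normalization, a single or robust prior, sample weights, the mouse number as a block, each mouse left out and an adjusted p under 0.01; GC and length trends and leaving out wild-type mice 3 and 4 were added after the data were seen.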

Additional observations from a re-analysis of the deposited data

Results flagged for a closer look

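In 22 groups of 5 mice (each genotype for Des, the 8 genes and the 2 transport genes that rose), 2 had a mouse far from the other 4 by Dixon's ratio, where chance gives about 1.1, or 1 in 20. Wild-type mouse 3 had a Des value of 17.74, the next being 16.55. Knock-out mouse 3 had an Fxyd5 value of 7.81, below the other knock-out mice, which began at 8.04.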

How the results depend on the processing

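Des, Atp1b1, Atp1b4, Clcn1 and Slc12a4 kept their direction and an adjusted p under 0.05 (limma) in each alternative in which they were tested, and Fxyd5 its direction without a call. With each mouse left out, log2 differences ranged from 0.63 to 0.83 for Atp1b1, from 1.76 to 2.15 for Atp1b4 and from -0.39 to -0.34 for Clcn1. Sample weights gave calls to Atp1b2 (0.23), Atp1b3 (0.17), Fxyd1 (0.30) and Fxyd6 (0.24), so that 7 of the 8 genes, 6 transport genes and 4220 of all genes passed. Without wild-type mice 3 and 4, Atp1b3 (0.20) and Fxyd1 (0.39) passed, with 5 of the 8 genes, 6 transport genes (3 higher and 3 lower) and 3394 of all genes. Transport genes passing were 2 as reported, 1 at a limit of log2(50), where Nkain2 is not tested, 1 at an adjusted p under 0.01, and 1 to 4 with 1 mouse left out, 1 being left without knock-out mouse 4 (Nkain2, adjusted p = 0.0636 from limma) and 4 being reached without wild-type mouse 4. With each mouse left out, 3 of the 8 genes passed. An adjusted p under 0.01 left 994 of all genes. With GC and length trends removed, 2515 of all genes, 3 of the 8 genes and 3 transport genes passed, Slc8a1 (-0.58) being lower. As reported, 1956 passed, and 1400 to 2496 with 1 mouse left out. Slc12a2 (-0.00058) turned to 0.04 with quantile normalization and lay between -0.12 and 0.13 with 1 mouse left out. For settings other than the limit, the cause was not tested.

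The labels do not say whether the mouse number pairs the mice. Deviations of same-numbered mice correlated between -0.22 and 0.07, and no knock-out mouse correlated best with its own number. With so few mice this shows no pairing but cannot exclude one. With the mouse number as a block 1579 genes passed, Atp1b1 (0.74), Atp1b4 (2.01) and Clcn1 (-0.36, adjusted p = 0.0419 from limma) kept their calls, and Nkain2 (0.42) lost it (adjusted p = 0.0684), which left 1 transport gene. Depth is unknown, so no counting error can be given for low genes such as Nkain2.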
